A study of Mus musculus with 11 samples.

Results

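Myeloid C-type lectin receptors were followed in gonadal white adipose tissue of mice that lack the adaptor protein 14-3-3ζ. The group holds 10 genes chosen by family and name, with earlier results of these data known (Clec4a1, Clec4a2, Clec4a3, Clec4d, Clec4e, Clec4n, Clec5a, Clec7a, Clec10a and Clec12a), out of 42815 loci with a deposited expression level. RNA-seq was performed on gonadal fat of 5 14-3-3ζKO and 6 wild-type (WT) male C57Bl/6 mice at 50 weeks of age, all singly housed. The knockout was whole-body, so 14-3-3ζ was missing from immune cells as well as from adipocytes, and the controls were wild-type mice with no transgene or drug in either group. The labels name standard rodent chow, whereas the study names a low-fat diet for its gonadal fat transcriptome, and which diet these animals had was not settled here. The libraries are numbered in the labels without naming an animal or litter, so p-values measure the spread between these libraries.

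Expression is given as FPKM, a fragment count scaled for transcript length and for the depth of the library. Every receptor has 1 deposited level per group, which equalled the mean over libraries for the 4 receptors with values in each library. Levels in single libraries were analysed for 86 loci, which are the 86 that the authors had called different between genotypes on these same 11 libraries. Clec4a2, Clec4a3, Clec7a and Clec12a are among them, so their p-values below are not independent of that choice. The other 6 receptors have group levels only and were compared without a test.

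Myeloid C-type lectin receptors sit on macrophages, dendritic cells, monocytes and neutrophils, where they bind sugars of microbes and ligands released by dying cells. Some activate the cell through the kinase Syk, either by a motif in their own tail or through the adaptors FcRγ (Fcer1g) and DAP12 (Tyrobp), and Syk then signals through Card9. Others carry an inhibitory motif that recruits phosphatases such as SHP-1 (Ptpn6). Fat tissue holds many resident macrophages, and in obesity macrophages gather around dying adipocytes.

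The labels were first checked against the targeted gene. Ywhaz, which encodes 14-3-3ζ, was at 14.5 to 38.2 FPKM in the 14-3-3ζKO libraries and at 94.2 to 118 FPKM in the WT libraries, and its mean in 14-3-3ζKO fat was 21.0% of that in WT fat. The adipocyte genes Fabp4 (31140 FPKM in 14-3-3ζKO, 13820 FPKM in WT) and Adipoq (1607 FPKM in 14-3-3ζKO, 1474 FPKM in WT) were high in both groups, as the tissue label states. Among the WT libraries, replicates 1, 3 and 4 stood apart. All 4 receptors were higher in these 3 libraries than in the 8 others, as were 64 of the 86 loci (74.4%). The summed level of the macrophage markers Emr1, Cd68 and Mpeg1 was 47.9 to 96.5 FPKM in the 14-3-3ζKO libraries, 829 to 958 FPKM in WT replicates 1, 3 and 4, and 83.4 to 161 FPKM in WT replicates 2, 5 and 6. Values with and without those 3 libraries are therefore given for each receptor.

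The stretch before the RefSeq gene start is shown for the 4 receptors with values in each library. The sequences are the 250 bases upstream of the start, 5′ to 3′ in the direction of the gene, from RefSeq on GRCm38.p6. The RefSeq starts of Clec4a2 and Clec12a lie kilobases inside the loci whose levels are given, and stretches before those loci were not searched. Capitals mark GAGGAA and its reverse complement TTCCTC, the core bound by the myeloid transcription factor PU.1. For Clec4a3 and Clec7a, which have a pair of starts each, 1 start is shown. The Clec4a3 start shown is the one with a match, and the window of its other start held none. Both Clec7a windows held the match.
Clec12a, chr6:129349994-129350243, plus strand: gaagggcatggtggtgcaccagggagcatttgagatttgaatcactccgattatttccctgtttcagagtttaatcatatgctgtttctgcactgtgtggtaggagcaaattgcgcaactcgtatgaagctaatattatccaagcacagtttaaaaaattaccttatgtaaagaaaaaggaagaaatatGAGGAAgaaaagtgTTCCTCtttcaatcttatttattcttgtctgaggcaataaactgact
Clec4a2, chr6:123122440-123122689, plus strand: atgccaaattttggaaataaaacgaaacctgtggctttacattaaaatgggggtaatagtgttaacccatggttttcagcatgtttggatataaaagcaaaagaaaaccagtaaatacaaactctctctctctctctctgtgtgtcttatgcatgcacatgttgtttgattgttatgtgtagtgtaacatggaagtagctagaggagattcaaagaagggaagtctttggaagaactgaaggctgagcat
Clec4a3, chr6:122952394-122952643, plus strand: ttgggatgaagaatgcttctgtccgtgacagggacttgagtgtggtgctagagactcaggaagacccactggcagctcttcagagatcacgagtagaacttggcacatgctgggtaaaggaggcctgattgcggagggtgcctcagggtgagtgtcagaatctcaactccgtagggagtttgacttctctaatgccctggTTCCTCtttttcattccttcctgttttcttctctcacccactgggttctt
Clec7a, chr6:129472780-129473029, minus strand: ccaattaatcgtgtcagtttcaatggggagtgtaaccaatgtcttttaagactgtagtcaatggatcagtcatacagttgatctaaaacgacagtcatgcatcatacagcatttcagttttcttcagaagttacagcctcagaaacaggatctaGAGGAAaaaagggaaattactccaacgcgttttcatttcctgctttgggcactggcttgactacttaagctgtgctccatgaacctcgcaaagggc

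GAGGAA was searched on both strands in the 8 receptors with an entry, every receptor but Clec4n and Clec10a. It was found in at least 1 window of 7 of them, and no match lay in the Clec4a2 window. Of all genes with an entry, 25.9% held it in at least 1 window of the same length (23.3% of 32851 windows). Counted from the gene start, the matches began at −61 and −47 in Clec12a, at −50 in Clec4a3, at −96 in the Clec7a window shown, at −217 and −187 in Clec4a1, at −240 in Clec4d, at −123 and −56 in Clec4e, and at −81 and −55 in Clec5a. The longer form GAGGAAGT, which contains GAGGAA, was in none of the 8 receptors and in 2.79% of all genes. The AP-1 motif TGANTCA was in Clec12a alone of the 8, at −213, and in 7.82% of all genes. These are matches of letters, and whether any factor binds them in fat was not measured.

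By group level, 5 of the 10 receptors were at least 2-fold lower in 14-3-3ζKO fat and none was 2-fold higher. A fold here is log2 of the 14-3-3ζKO FPKM plus 1 over the WT FPKM plus 1, and loci with under 1 FPKM in both groups were left out of the background. Among the 16266 loci kept, 4.19% were at least 2-fold lower and 10.5% at least 2-fold higher in 14-3-3ζKO, and 85.3% were within 2-fold. The median log2 fold was −1.59 over the 10 receptors and 0.05 over all loci kept. The receptors summed to 119 FPKM in 14-3-3ζKO and 289 FPKM in WT fat. In bulk tissue, fewer cells of a type and less RNA per cell cannot be told apart.

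**Figure D1:**
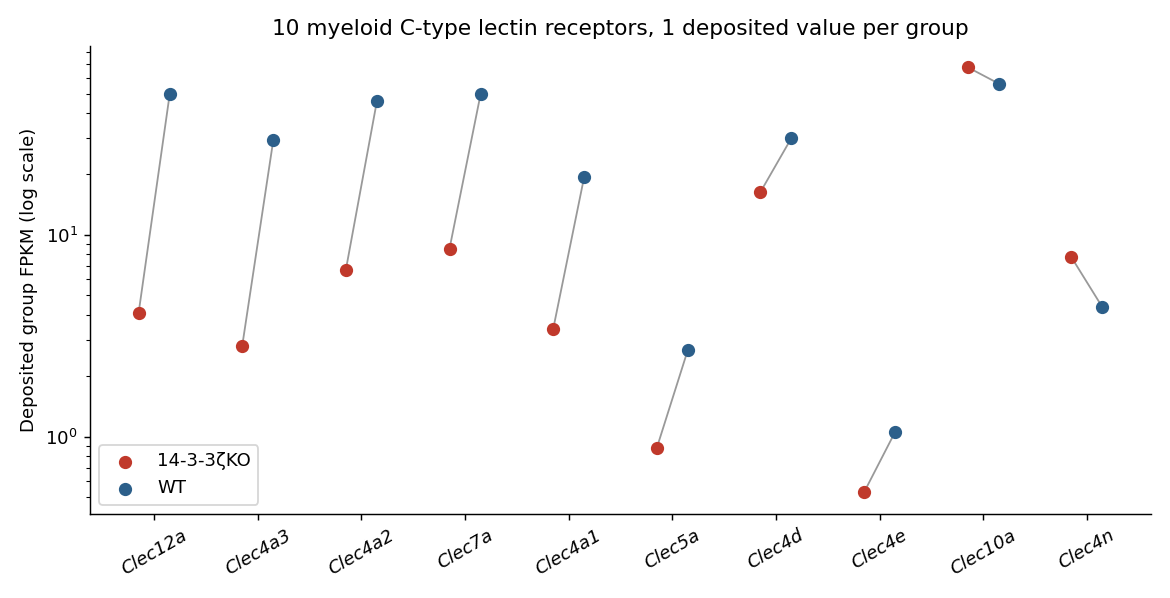
Deposited group FPKM (log axis) of the 10 receptors in 14-3-3ζKO (red, left of each pair) and WT (blue, right) fat, ordered by log2 fold. Each point is the authors' group value, so no error is drawn. Clec12a (4.11 FPKM in 14-3-3ζKO, 49.8 FPKM in WT) is at the low end and Clec4n (7.76 FPKM in 14-3-3ζKO, 4.38 FPKM in WT) at the high end.

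**Figure D2:**
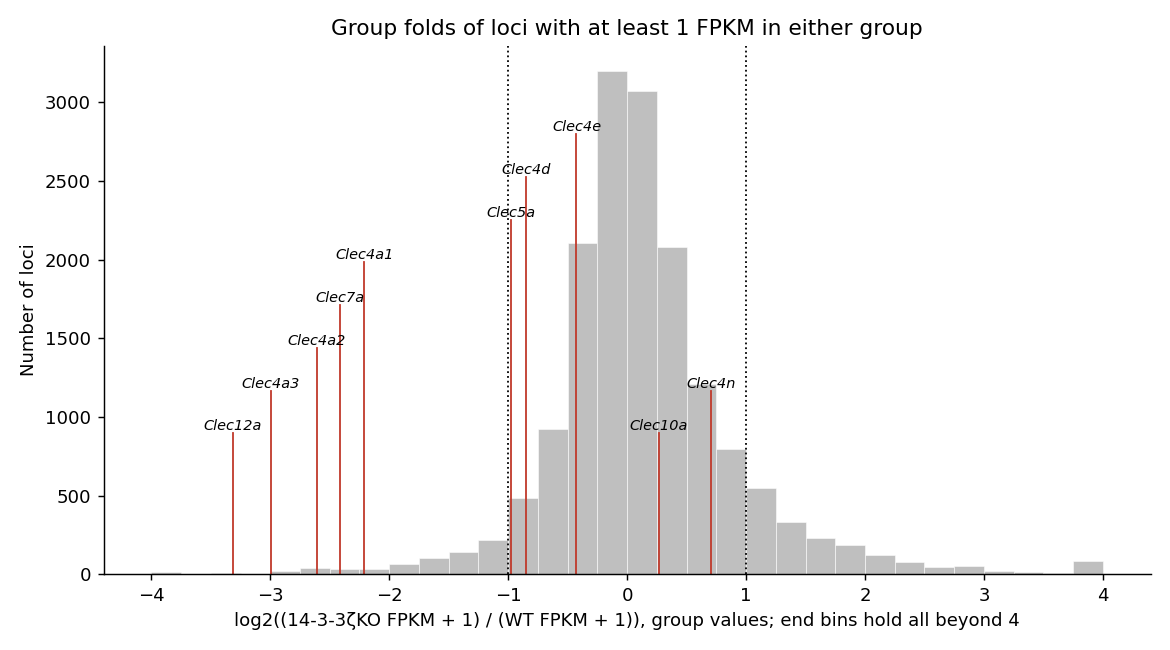
Number of loci by log2 fold of group FPKM, 14-3-3ζKO over WT, for the 16266 loci with at least 1 FPKM in either group. Red lines mark the 10 receptors, their heights carry no value, dotted lines mark 2-fold, and the end bins hold every fold beyond 4. Clec12a, Clec4a3, Clec4a2, Clec7a and Clec4a1 lie left of the lower dotted line.

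Clec12a had the lowest fold of the 10 receptors. Clec12a, also called MICL, carries an inhibitory motif and recognises uric acid crystals. It was at 0.381, 9.24, 2.22, 5.36 and 3.36 FPKM in 14-3-3ζKO replicates 1 to 5, against 66.7, 13.2, 97.8, 103 and 11.4 FPKM in WT replicates 1 to 5 and 6.58 FPKM in WT replicate 6. The groups overlapped only at 14-3-3ζKO replicate 2, which was above WT replicate 6, and the other 4 14-3-3ζKO libraries were below every WT library. Clec12a averaged 4.11 ± 3.39 FPKM in 14-3-3ζKO and 49.8 ± 45 FPKM in WT fat (SD, n = 5 and 6). The difference in mean log2(FPKM + 1) was −2.90 ± 0.84 (SE), with a 2-sided exact permutation p of 0.0130 and 0.0407 after Benjamini-Hochberg adjustment over the 86 loci. Of the 86 loci, 47.7% were called lower in 14-3-3ζKO by this test, and 3 of the 4 receptors were, so the receptors' share is to be read against a table chosen for difference. Without WT replicates 1, 3 and 4, the difference was −1.40 ± 0.56, with a limma adjusted p of 0.163, against 0.0132 by limma with all libraries. The SE given with each such difference comes from the spread within each group, and limma's own SE was 0.616 here.

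Clec4a2, or DCIR1, has an inhibitory motif in its tail. Its level was 2.77, 13.3, 3.79, 9.07 and 4.63 FPKM in 14-3-3ζKO replicates 1 to 5, against 62.3, 10.7, 88.4, 89.3, 16.5 and 9.26 FPKM in WT replicates 1 to 6. 14-3-3ζKO replicate 2 was above WT replicates 2 and 6, and the other 4 14-3-3ζKO libraries were below all WT libraries. The mean was 6.71 ± 4.4 FPKM in 14-3-3ζKO and 46.1 ± 38.5 FPKM in WT (SD, n = 5 and 6), a log2 difference of −2.23 ± 0.70 (SE; exact permutation p = 0.0238, adjusted p = 0.0447). Against WT replicates 2, 5 and 6 alone, the difference was −0.91 ± 0.42, with a limma adjusted p of 0.194 (0.0162 by limma with all libraries).

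Clec4a3 is a close relative of Clec4a2. It was at 0.708, 3.82, 2.31, 4.70 and 2.59 FPKM in 14-3-3ζKO replicates 1 to 5, against 40.7, 8.0, 53.2, 56.4, 12.4 and 6.53 FPKM in WT replicates 1 to 6. Every 14-3-3ζKO library was below every WT library, which held for 12.8% of the 86 loci and for no other of the 4 receptors. Clec4a3 averaged 2.82 ± 1.52 FPKM in 14-3-3ζKO and 29.5 ± 23.2 FPKM in WT (SD, n = 5 and 6). The log2 difference was −2.64 ± 0.62 (SE; exact permutation p = 0.00649, adjusted p = 0.0399). The difference was −1.45 ± 0.39 without WT replicates 1, 3 and 4 (limma adjusted p = 0.0879, and 0.0125 by limma with all libraries). Those libraries were the highest in WT, so leaving them out could not make the groups overlap.

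Clec4a1, the third member of the DCIR branch here, was at 3.40 FPKM in 14-3-3ζKO and 19.4 FPKM in WT fat, a log2 fold of −2.21. Only 0.744% of loci had a lower fold. The corresponding shares were 0.117% for Clec12a, 0.166% for Clec4a3 and 0.418% for Clec4a2. Whether the Clec4a1 value rests on single libraries was not analysed here.

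Clec7a, or Dectin-1, binds β-glucans of fungal cell walls and signals through Syk by a motif in its own tail. It was at 4.92, 22.5, 3.41, 8.05 and 3.76 FPKM in 14-3-3ζKO replicates 1 to 5, against 118, 14.3, 86.3, 66.4, 7.07 and 5.81 FPKM in WT replicates 1 to 6. The groups overlapped more than for the other 3 receptors, with 3 of 5 14-3-3ζKO libraries below all WT libraries and 14-3-3ζKO replicate 2 above WT replicates 2, 5 and 6. Clec7a averaged 8.53 ± 8.02 FPKM in 14-3-3ζKO and 49.7 ± 47.6 FPKM in WT (SD, n = 5 and 6). The log2 difference was −1.92 ± 0.87 (SE) and did not pass the test (exact permutation p = 0.0758, adjusted p = 0.0857). By limma its adjusted p was 0.0336, and limma called 68.6% of the 86 loci lower in 14-3-3ζKO, with all 4 receptors among them. Without WT replicates 1, 3 and 4 the Clec7a difference was −0.30 ± 0.57, with a limma adjusted p of 0.670.

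**Figure D3:**
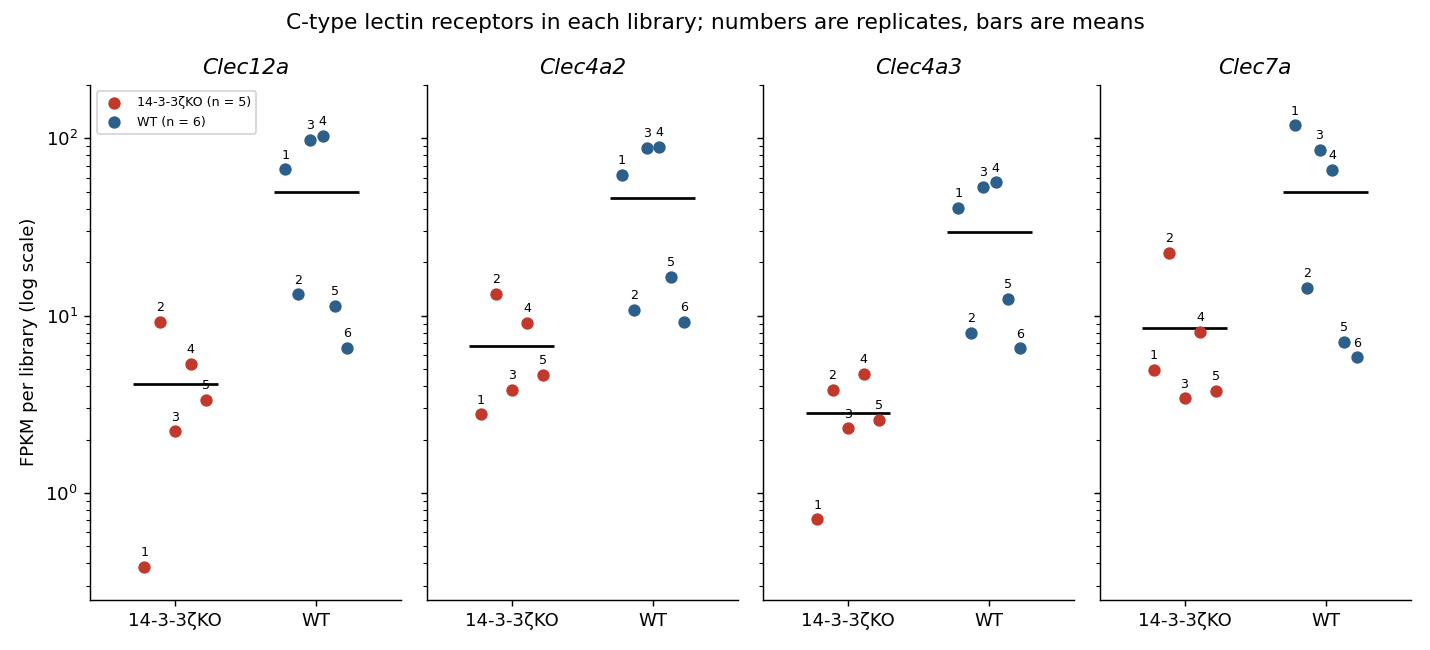
FPKM (log axis) of Clec12a, Clec4a2, Clec4a3 and Clec7a in each of 5 14-3-3ζKO (red, left) and 6 WT (blue, right) libraries. Point numbers are replicates and bars are group means. WT replicates 1, 3 and 4 lie above all other libraries for each gene, and the groups do not overlap for Clec4a3.

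The WT libraries differed widely among themselves. WT replicates 1, 3 and 4 averaged 89.2 ± 19.6 FPKM of Clec12a, 80.0 ± 15.3 FPKM of Clec4a2, 50.1 ± 8.29 FPKM of Clec4a3 and 90.3 ± 26.1 FPKM of Clec7a (SD, n = 3). The other 3 WT libraries averaged 10.4 ± 3.40 FPKM of Clec12a, 12.2 ± 3.81 FPKM of Clec4a2, 8.99 ± 3.07 FPKM of Clec4a3 and 9.05 ± 4.57 FPKM of Clec7a (SD, n = 3). These 3 libraries were set apart by the levels of these same genes, so a smaller difference without them follows in part from the choice. The labels name no batch that sets them apart. Whether a technical difference or the animals gave the split was not tested.

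Clec4d, Clec4e and Clec4n couple to FcRγ and have group levels only. Clec4d (MCL) and Clec4e (Mincle) bind mycobacterial glycolipids, and Mincle also responds to a protein released by dying cells. Clec4d was the second most abundant of the 10 receptors in 14-3-3ζKO at 16.2 FPKM and was at 30.1 FPKM in WT fat, a log2 fold of −0.85. Clec4e was the lowest of the 10 in both groups, with 0.529 FPKM in 14-3-3ζKO and 1.05 FPKM in WT (log2 fold −0.43). Clec4n, or Dectin-2, recognises fungal mannans. It was at 7.76 FPKM in 14-3-3ζKO and 4.38 FPKM in WT, a log2 fold of 0.70, in the opposite direction to Clec4d next to it. All 3 stayed within 2-fold, as did 85.3% of all loci kept.

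Clec5a, or MDL-1, couples to DAP12. It was at 0.877 FPKM in 14-3-3ζKO and 2.69 FPKM in WT fat, and its log2 fold of −0.97 lay just inside 2-fold after 1 FPKM was added. As a plain ratio its 14-3-3ζKO level was 32.7% of that in WT, so the added 1 FPKM decides on which side of 2-fold it falls. Clec10a, or MGL1, is an endocytic receptor for galactose-type sugars and the only one of the 10 on chromosome 11. It was the most abundant receptor in both groups, with 67.6 FPKM in 14-3-3ζKO and 56.1 FPKM in WT (log2 fold 0.27). Clec10a made up 57.0% of the summed receptor level in 14-3-3ζKO and 19.4% in WT.

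The order of the group levels thus differed. In 14-3-3ζKO fat it was Clec10a, Clec4d, Clec7a, Clec4n, Clec4a2, Clec12a, Clec4a1, Clec4a3, Clec5a and Clec4e, from high to low. In WT fat it was Clec10a, Clec12a, Clec7a, Clec4a2, Clec4d, Clec4a3, Clec4a1, Clec4n, Clec5a and Clec4e. In WT, the means of Clec12a (49.8 FPKM), Clec7a (49.7 FPKM) and Clec4a2 (46.1 FPKM) differed by far less than their SDs over libraries, so the order among these neighbours is not resolved. In 14-3-3ζKO, Clec4a2 was above Clec12a in each of the 5 libraries, by 1.38 to 7.28 times. Against Clec7a, Clec4a2 was at 0.564, 0.591, 1.11, 1.13 and 1.23 times its level in 14-3-3ζKO replicates 1 to 5. The order of Clec7a and Clec4a2 in 14-3-3ζKO is therefore not resolved, and Clec4n, listed between them, has a group level only. FPKM is scaled for length, which is what allows genes to be ordered by it.

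The size of the folds differed along the chromosome. In NCBIM37 coordinates, the build of the files, 9 receptors lie on chromosome 6. Clec4a1 (chr6:122871866-122884637), Clec4a3 (chr6:122901552-122919954) and Clec4a2 (chr6:123056446-123094017) are on the plus strand. They are followed on the same strand by Clec4n (chr6:123179861-123197039) and Clec4d (chr6:123212125-123225286), and then by Clec4e (chr6:123231807-123239888) on the minus strand. These 6 loci span 368023 bp. Between Clec4a3 and Clec4a2 lie Clec4a4, at 0.184 FPKM in 14-3-3ζKO and 0.135 FPKM in WT, and Clec4b1 (DCAR), which couples to FcRγ, at 2.0 FPKM in 14-3-3ζKO and 18.6 FPKM in WT (log2 fold −2.71). Clec4b2, between Clec4a2 and Clec4n, was listed at 0 in both groups. Clec4a1, Clec4a3, Clec4b1 and Clec4a2, at 1 end of the cluster, had log2 folds under −2. At the other end, Clec4d and Clec4e had negative log2 folds of smaller size (−0.85 and −0.43), and Clec4n alone had a positive one (0.70).

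Clec12a (chr6:129292709-129315321, plus strand) and Clec7a (chr6:129411611-129422844, minus strand) lie within 130136 bp of each other further along the chromosome. Clec5a (chr6:40524893-40535820, minus strand) stands alone, and Clec10a is at chr11:69980125-69984337 on the plus strand. All 10 are annotated as protein-coding, and each has a row of its own.

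**Figure D4:**
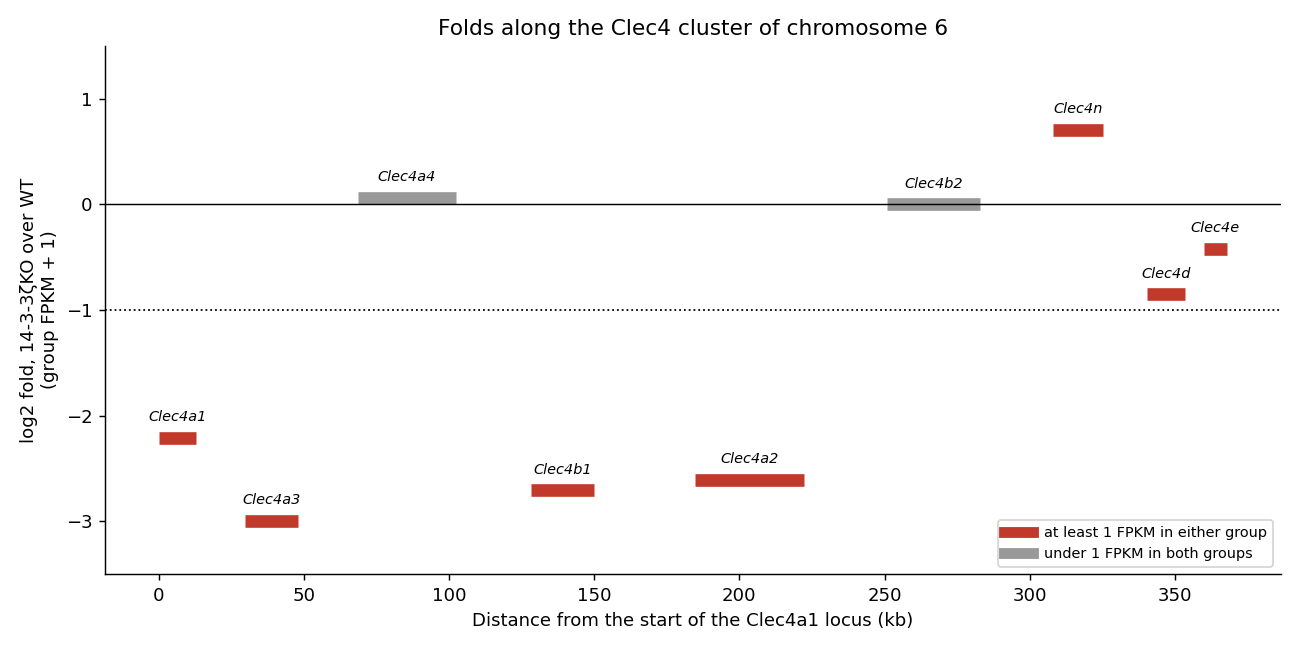
Log2 fold of group FPKM plus 1, 14-3-3ζKO over WT, against distance in kb from the start of Clec4a1 along the Clec4 cluster of chromosome 6. Bars span each locus, grey loci had under 1 FPKM in both groups, and the dotted line is 2-fold lower. Clec4a1 to Clec4a2 lie below the line, apart from Clec4a4, and Clec4n to Clec4e lie above it.

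Clec4a2 and its neighbours are similar enough that fragments may be assigned to the wrong copy, which bears on their separate values. Coding sequences of Clec4a2 and Clec4a4 were 85.8% identical where aligned, those of Clec4a2 and Clec4b1 87.1%, and those of Clec4a2 and Clec4a3 76.8%. Of the 31-base words in the Clec4a2 coding sequence, 18.2% also occurred in Clec4a4, 16.2% in Clec4b1 and 0.53% in Clec4a3. Clec4a4 was listed near 0, but that level rests on the same assignment of fragments. The separate values of Clec4a2, Clec4a4 and Clec4b1 are therefore to be held as uncertain. The longest runs that Clec4a2 shares with each are printed to show how far identity reaches, first with Clec4a4 (163 bases), then with Clec4b1 (82 bases) and then with Clec4a3 (34 bases).
Clec4a2 and Clec4a4: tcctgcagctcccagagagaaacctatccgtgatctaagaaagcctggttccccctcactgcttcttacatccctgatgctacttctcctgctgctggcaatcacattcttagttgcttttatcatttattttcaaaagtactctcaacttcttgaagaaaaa
Clec4a2 and Clec4b1: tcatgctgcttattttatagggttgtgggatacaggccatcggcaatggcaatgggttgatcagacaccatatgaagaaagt
Clec4a2 and Clec4a3: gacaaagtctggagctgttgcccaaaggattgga

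Across libraries, Clec12a, Clec4a2 and Clec4a3 moved together more closely than Clec7a moved with them. Over the 11 libraries the correlation of log2(FPKM + 1) was 0.99 for Clec4a2 with Clec12a, 0.98 for Clec4a3 with Clec4a2 and 0.98 for Clec4a3 with Clec12a. Without WT replicates 1, 3 and 4, these were 0.94, 0.89 and 0.92 over 8 libraries. For Clec7a, the correlation with Clec4a3 was 0.88 over 11 libraries and 0.39 over 8. All are descriptions of libraries that share the split in WT. Clec7a was also the receptor that set 14-3-3ζKO replicate 2 apart, at 22.5 FPKM against at most 8.05 FPKM in the other 14-3-3ζKO libraries.

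A single library set the receptors apart from each other in another way. In 14-3-3ζKO replicate 1, Clec7a was 12.9 times the level of Clec12a. The same ratio was 2.44, 1.54, 1.5 and 1.12 in 14-3-3ζKO replicates 2 to 5, and it lay between 0.62 and 1.77 in the 6 WT libraries. The ratio of Clec4a2 to Clec4a3 was 2.55 ± 1.07 in 14-3-3ζKO (SD, n = 5) and 1.48 ± 0.14 in WT libraries (SD, n = 6). It was above 3 only in 14-3-3ζKO replicates 1 (3.92) and 2 (3.49). These ratios are descriptions with no test.

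The 5 other loci whose levels were most like the mean of the 4 receptors over the 11 libraries were Myo1f (r = 0.996), an unconventional myosin of leukocytes, the row of AF251705 and Gm11709 (r = 0.994), Slc37a2 (r = 0.993), a sugar phosphate transporter found in macrophages, Cd300ld (r = 0.990), a myeloid surface receptor, and Apobec1 (r = 0.987), a cytidine deaminase. These came from the 86 loci alone. Over the 8 libraries without WT replicates 1, 3 and 4, r was 0.998 for Myo1f and 0.934 to 0.969 for the other 4.

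Markers of macrophages moved with the receptors. Of 8 pan-macrophage markers, 7 were at least 2-fold lower in 14-3-3ζKO by group level, and their summed level was 475 FPKM in 14-3-3ζKO and 3013 FPKM in WT fat. Emr1 (F4/80) was at 7.79 FPKM in 14-3-3ζKO and 95.5 FPKM in WT, Cd68 at 42.7 FPKM in 14-3-3ζKO and 272 FPKM in WT, and the lysozyme gene Lyz2 at 334 FPKM in 14-3-3ζKO and 2311 FPKM in WT. The exception was Cd14, at 33.1 FPKM in 14-3-3ζKO and 26.9 FPKM in WT. No pan-macrophage marker was at 0 in either group. Of 4 pan-leukocyte markers, 3 were at least 2-fold lower.

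Markers of other receptor-bearing cells did not all follow. Of the 7 dendritic cell markers, 5 had at least 1 FPKM in either group and 1 of them was 2-fold lower (Itgax, 5.99 FPKM in 14-3-3ζKO and 49.1 FPKM in WT), while Cd209a was at 4.44 FPKM in 14-3-3ζKO and 4.49 FPKM in WT. Of the 5 monocyte markers, 2 were 2-fold lower and 1 was higher. Of the 6 neutrophil markers, 4 had at least 1 FPKM and 2 of these were 2-fold higher: S100a9 was at 23.1 FPKM in 14-3-3ζKO and 4.62 FPKM in WT, and Retnlg at 8.75 FPKM in 14-3-3ζKO and 0.35 FPKM in WT. Ly6g, which defines neutrophils, was listed at 0 in 14-3-3ζKO and at 0.0756 FPKM in WT. Of the 5 mast cell markers, 4 were 2-fold lower.

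Set against macrophage markers in the same library, no receptor was called lower. The log2 level of each receptor was taken relative to the mean log2 level of Emr1, Cd68 and Mpeg1, an alternative added after the data were seen. These 3 markers could be used because they are among the 86 loci that the authors had called, and their log2 folds by group level (−3.46, −2.64 and −2.92) are lower than those of most of the 8-marker list. The difference between 14-3-3ζKO and WT was then −0.46 ± 0.41 for Clec12a, −0.20 ± 0.32 for Clec4a3, 0.22 ± 0.27 for Clec4a2 and 0.53 ± 0.34 for Clec7a (SE, n = 5 and 6). Adjusted exact permutation p-values over the 86 loci were 0.318, 0.621, 0.477 and 0.203 in the same order of genes. No locus of the 86 was called lower by the exact permutation test or by limma on this scale. At an unadjusted permutation p under 0.05, 1 locus was lower, and it was not a receptor. Loci higher in 14-3-3ζKO on this scale were not counted. A missed threshold does not show equal levels, and the intervals implied by these errors still hold changes of over 1.5-fold for each receptor.

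As a percent of Cd68, the lysosomal glycoprotein of macrophages, Clec12a stood at 0.731, 16.2, 6.90, 12.9 and 10.8% in 14-3-3ζKO replicates 1 to 5, against 14.5 to 21.7% in the 6 WT libraries. Only 14-3-3ζKO replicate 2 was inside the WT range. Clec4a3 stood at 1.36 to 11.3% of Cd68 in 14-3-3ζKO, against 8.83 to 17.2% in WT, and Clec4a2 at 5.33 to 23.4% in 14-3-3ζKO, against 12.6 to 22.7% in WT. Clec7a was at 39.6% of Cd68 in 14-3-3ζKO replicate 2 and at 9.44 to 19.5% in the other 14-3-3ζKO libraries, against 9.76 to 25.7% in WT. As a percent of Emr1, Clec12a stood at 9.09, 96.3, 39.2, 49.6 and 38.7% in 14-3-3ζKO replicates 1 to 5, against 42.1 to 54.2% in WT, so 3 of 5 14-3-3ζKO libraries were below the WT range and replicate 2 was above it. The difference in the mean log2 ratio of Clec12a, 14-3-3ζKO minus WT, was −0.43 ± 0.56 to Emr1, −0.96 ± 0.80 to Mpeg1, −1.23 ± 0.66 to Tyrobp, −1.38 ± 0.82 to Cd68 and −1.66 ± 0.56 to Ptprc (SE, n = 5 and 6), a description with no test. To Ptprc, the differences were −1.33 ± 0.38 for Clec4a3, −0.63 ± 0.19 for Clec4a2 and −0.27 ± 0.39 for Clec7a, also with no test. To Tyrobp, they were −0.90 ± 0.39, −0.20 ± 0.31 and 0.16 ± 0.50 in the same order of genes. Unlike the relative levels above, these ratios are of FPKM with no 1 FPKM added. The low Clec12a level of 14-3-3ζKO replicate 1 (0.381 FPKM) therefore weighs more in them. The part of macrophage content in the receptor differences was not tested further.

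**Figure D5:**
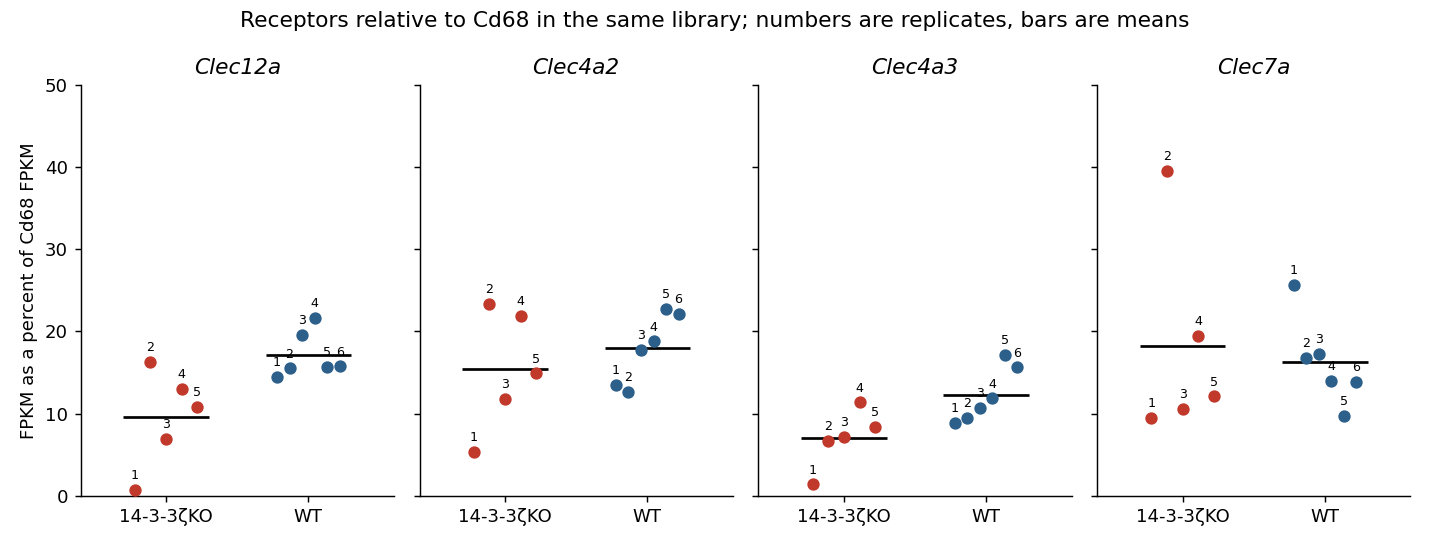
FPKM of each receptor as a percent of Cd68 FPKM in the same library (linear axis from 0), for 5 14-3-3ζKO (red, left) and 6 WT (blue, right) libraries. Point numbers are replicates and bars are group means. Clec12a is at 0.731% in 14-3-3ζKO replicate 1 and at 14.5 to 21.7% in WT, and Clec7a is at 39.6% in 14-3-3ζKO replicate 2.

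The signalling partners of the receptors were read from lists of genes. Of 13 activating adaptors and kinases, 3 were at least 2-fold lower in 14-3-3ζKO (Tyrobp, Fcer1g and Lyn), none was 2-fold higher, and the median log2 fold was −0.79, against 0.05 over all loci. Tyrobp, the DAP12 adaptor used by Clec5a, was at 71.9 ± 24.7 FPKM in 14-3-3ζKO and 470 ± 383 FPKM in WT libraries (SD, n = 5 and 6; log2 difference −2.21, exact permutation adjusted p = 0.0447). Fcer1g, the FcRγ adaptor of Clec4d, Clec4e and Clec4n, was at 78.9 FPKM in 14-3-3ζKO and 262 FPKM in WT (log2 fold −1.72). This fold was lower than those of Clec4d, Clec4e and Clec4n. It was not lower than that of Clec4b1 (log2 fold −2.71), which also couples to FcRγ. Syk was at 14.9 FPKM in 14-3-3ζKO and 29.1 FPKM in WT (log2 fold −0.92). Bcl10, which acts with Card9, was at 23.4 FPKM in 14-3-3ζKO and 26.1 FPKM in WT.

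Of the 3 phosphatases that inhibitory receptors recruit, Ptpn6 (SHP-1) was 2-fold lower, at 9.36 FPKM in 14-3-3ζKO and 27.7 FPKM in WT (log2 fold −1.47). Ptpn11 (SHP-2) was at 32.2 FPKM in 14-3-3ζKO and 34.9 FPKM in WT. Of 12 cytokine, chemokine and inflammasome genes downstream of Card9, 9 had at least 1 FPKM in either group and none was 2-fold lower or higher, with a median log2 fold of 0.31. The added 1 FPKM bears on this for genes of low level: Il6 was at 1.07 FPKM in 14-3-3ζKO and 0.251 FPKM in WT, and Ptgs2 at 1.51 FPKM in 14-3-3ζKO and 0.686 FPKM in WT, both over 2-fold higher as plain ratios. The chemokine gene Ccl3 was at 7.76 FPKM in 14-3-3ζKO and 6.06 FPKM in WT, and Cxcl1 at 6.17 FPKM in 14-3-3ζKO and 7.32 FPKM in WT.

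Most other C-type lectin receptors of myeloid cells lay within 2-fold, as did 85.3% of all loci kept. Of 20 such genes in 19 rows, 12 rows had at least 1 FPKM in either group, 2 were at least 2-fold lower, none was higher, and the median log2 fold was −0.21. Of all loci kept, 4.19% were at least 2-fold lower and 10.5% at least 2-fold higher. The lower ones were Clec4b1, described with the cluster, and Mrc1, the mannose receptor, at 15.1 FPKM in 14-3-3ζKO and 43.8 FPKM in WT (log2 fold −1.48). Cd302 was at 64.0 FPKM in 14-3-3ζKO and 72.8 FPKM in WT, and Cd209f at 12.6 FPKM in 14-3-3ζKO and 15.2 FPKM in WT. Of 19 C-type lectins of other cells and lymphoid receptors, 16 had at least 1 FPKM, 2 were 2-fold lower (Klrb1c and Cd248) and none was higher.

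Among transcription factors of myeloid genes, 7 were analysed here, of which 1 was at least 2-fold lower and 1 at least 2-fold higher, with a median log2 fold of −0.55. The lower one was Tfec (log2 fold −1.27) and the higher one Cebpb (94.9 FPKM in 14-3-3ζKO, 32.9 FPKM in WT, log2 fold 1.5). PU.1 itself was not analysed here, so no level can be set beside the GAGGAA matches.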

How the data were processed

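RNA-seq of gonadal white adipose tissue from 5 14-3-3ζKO and 6 WT mice was analysed. According to the labels and the submitters' processing notes, libraries were made from total RNA with a TruSeq kit, aligned with TopHat2 2.0.11 to NCBIM37 and quantified with Cufflinks 2.2.0 and Cuffdiff. The deposited FPKM values were made by the authors: 1 mean per group for 42815 loci, and 1 value per library for the 86 loci that they had called different. The authors' columns of fold changes, test statistics, p and q values were not used, except that their call was read to see how the 86 loci had been chosen. No source used here states whether fragments were counted by strand. A nominal read number is stated for the samples, but no total of mapped fragments per library was at hand, so no counting interval is given.

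The members and lists were chosen with earlier results of these data known. Values were taken as log2(FPKM + 1), except that ratios of 1 gene to another in the same library were taken on plain FPKM. For the 86 loci, the difference of group means was tested with a 2-sided exact permutation test over all 462 assignments of libraries (smallest possible p 0.00216), adjusted by Benjamini-Hochberg over the 86 loci at 0.05. limma 3.58.1 in R 4.3.3 was the alternative. Count models could not be used on FPKM. For group values a 2-fold difference was reported with no test, against the 16266 loci with at least 1 FPKM in either group. Scripts were checked on data with known answers. Alternatives were a pseudocount of 0.1 or 5 FPKM, limma, a replicate block, each library left out in turn, WT replicates 1, 3 and 4 left out, other folds, and, added after the data were seen, levels relative to macrophage markers. Every receptor was named, with at most 4 genes of each list (those with values per library first, then the highest FPKM) and the 5 loci with the most similar levels. Cd14, Ly6g, Lyn, Syk, Il6, Ptgs2, Clec4b1, Tfec, Cd248 and the cluster genes Clec4a4 and Clec4b2 were named after their values were seen. A few listed genes are not reported here. Promoters came from RefSeq on GRCm38.p6 and coding sequences from GENCODE on NCBIM37.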

Additional observations from a re-analysis of the deposited data

Results flagged for a closer look

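Within each group of libraries, the highest and lowest level of each of the 4 receptors was set against the rest of its group. Clec7a in 14-3-3ζKO replicate 2 stood apart, at 22.5 FPKM, with a gap to the next 14-3-3ζKO library that was 0.757 of the group's whole range. Chance gives such a gap in about 1 in 20 groups, and 8 groups were examined. That rate is for values with a normal distribution, whereas plain FPKM, not log2(FPKM + 1), was used here. The 8 groups also came from the same libraries and so are not independent.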

How the results depend on the processing

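By the exact permutation test 41 of the 86 loci and 3 receptors were lower in 14-3-3ζKO. With a pseudocount of 5 FPKM these were 6 loci and 1 receptor. Leaving out 1 library at a time gave 0 to 62 loci and 0 to 3 receptors. No receptor passed without any 1 of the 5 14-3-3ζKO libraries (3 or 4 had an unadjusted p under 0.05), 1 passed without WT replicate 1 or 4, and 2 passed without WT replicate 3. Fewer libraries allow fewer assignments, 210 without a 14-3-3ζKO library, so the adjusted threshold is harder to reach. By limma, 59 loci and 4 receptors were lower, with 34 to 65 loci and 3 to 4 receptors when 1 library was left out. Without WT replicates 1, 3 and 4, limma called 1 locus and 0 receptors lower (1 receptor, and 15 loci, at an unadjusted p under 0.05). The exact permutation test called 0 loci lower (12 at an unadjusted p under 0.05). It had fewer assignments still, too few for so small a number of loci to pass adjustment, so its 0 does not show equal levels. Relative to macrophage markers 0 loci and 0 receptors were lower, and the differences of Clec4a2 (0.22) and Clec7a (0.53) turned positive, though neither passed the test. The replicate block in limma, which drops WT replicate 6, gave 64 loci and 4 receptors. The labels do not say that equal numbers mark shared animals, and same-numbered libraries did not deviate together (correlations −0.49, −0.04, 0.10, 0.57 and −0.03 for replicates 1 to 5), so the numbers were not treated as pairs. The cause of the other changes was not tested. By group level 5 receptors were at least 2-fold lower, as were 4.19% of all loci kept. With a pseudocount of 0.1 FPKM these were 6 receptors and 6.35% of loci. At 1.5-fold they were 7 receptors and 10.5% of loci, and at 4-fold 5 receptors and 0.91% of loci. After recentring on the median of all loci they were 6 receptors and 4.64% of loci. Low FPKM such as Clec12a in 14-3-3ζKO replicate 1 rest on few fragments whose number is unknown.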
